A study of Homo sapiens with 2 samples.

Results

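The genes described here are those of prostaglandin E2 synthesis, sensing and breakdown, 9 of the 55773 gene symbols left after rows with numbered copies of a name were summed: PLA2G4A, PTGS1, PTGS2, PTGES, PTGES2, PTGES3, PTGER2, PTGER4 and HPGD. They were chosen for the known role of PTGS2 in bladder cancer and selected on its lower value in the ANGPTL4 library, so the difference of PTGS2 between the libraries is given as a description and supports nothing else. All 9 were found in both tables by symbol. At least 1 RPKM (reads scaled for exon length and library size) in at least 1 library was reached by 7 of them, as it was by 11802 of all symbols, and such genes are called measured. PTGER2 and HPGD did not reach it.

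RNA was taken from BFTC 905, an established human cell line from a urothelial carcinoma of the bladder that, per the labels, expresses little ANGPTL4, grown in RPMI-1640 with serum. The vector control library came from cells carrying the empty plasmid pcDNA3.1-myc-His (-) A, and the ANGPTL4 library from cells carrying a plasmid for ANGPTL4, known as a secreted inhibitor of lipoprotein lipase. Both were kept under G418 at 400 ug/ml to obtain stable clones, and it is not stated whether a library represents 1 clone or a pool. Each group is a single library. The differences therefore lack replicates and carry no p-value, and clone, culture and plasmid cannot be told apart. Intervals given here are exact 95% intervals that cover counting error only.

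Read totals worked out from the RPKM steps were 6572767 for the control library and 3233596 for the ANGPTL4 library. ANGPTL4 itself was at 3.92 RPKM with the vector and 91.2 RPKM with ANGPTL4. Mitochondrially encoded protein genes took 5.11% of reads with the vector and 8.71% with ANGPTL4, and the part of this in the results was not tested. Of 20 urothelial and epithelial markers 16 were measured, among them KRT5, KRT19 and UPK1B. Not measured were KRT20, FOXA1, UPK1A and UPK3A. The list summed to 2686 RPKM with the vector and 2486 RPKM with ANGPTL4. Of leukocyte markers 1 of 10 was measured, of mast cell and platelet markers 0 of 7, of fibroblast markers 1 of 8, of endothelial markers 1 of 5 and of smooth muscle markers 0 of 4. The measured ones were CD14, COL1A1 and ENG, with COL1A1 the highest at 4.14 RPKM with the vector and 4.06 RPKM with ANGPTL4. Each of these lists summed to at most 4.76 RPKM in either library, PTPRC was at 0.0179 RPKM with the vector and 0 with ANGPTL4, and DCN was at 0 in both. Across all measured genes the median log2 ratio, log2((RPKM + 1) in ANGPTL4 / (RPKM + 1) in control), was -0.11, and 64.4% of them had a lower value in the ANGPTL4 library.

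Prostaglandin E2 is made stepwise. A phospholipase A2 such as the one encoded by PLA2G4A frees arachidonic acid from membranes, a cyclooxygenase (PTGS1, present in many tissues, or PTGS2, induced by growth factors and inflammation) turns it into prostaglandin H2, and a prostaglandin E synthase (PTGES, PTGES2 or PTGES3) converts that to prostaglandin E2. The product acts on cell-surface receptors, of which those encoded by PTGER2 and PTGER4 raise cyclic AMP, and it is inactivated by the dehydrogenase encoded by HPGD. PTGS2 is often raised in urothelial carcinoma, and its product is the target of anti-inflammatory drugs.

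PTGS2 and the prostaglandin E synthases were the abundant ones of these genes, and HPGD and PTGER2, for breakdown and the EP2 receptor, were close to undetected. In the control library the order of levels was PTGES3, PTGES, PTGS2, PTGES2, PLA2G4A, PTGER4, PTGS1, PTGER2 and HPGD. The ANGPTL4 library had the same order except that PTGES2 stood above PTGS2. PTGS2 and PTGES2 could not be separated in the control library, where the ratio of their levels was 1.07 (0.972 to 1.19), and in the ANGPTL4 library the same held for PTGES and PTGES2 at 1.06 (0.875 to 1.28) and for PTGER2 and HPGD at 2.24 (0.299 to 16.7). In both libraries each of the other neighbours in the order differed beyond counting error.

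**Figure D1:**
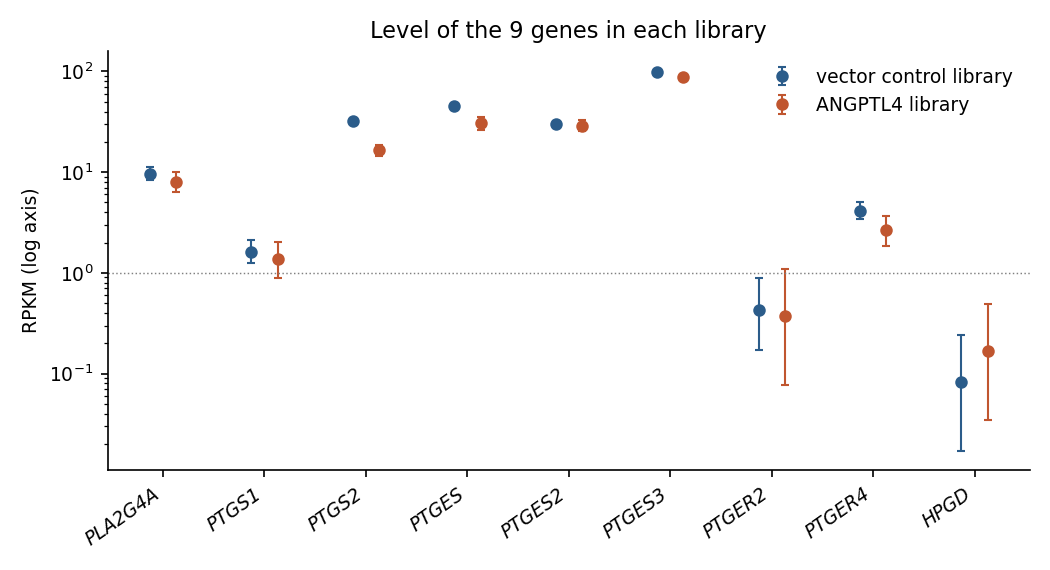
Level of each of the 9 genes in RPKM on a log axis, with the vector control library in blue and the ANGPTL4 library in orange; bars are exact 95% counting intervals and the dotted line marks 1 RPKM. PTGES3 was highest at 99.5 and 88.7 RPKM, PTGER2 and HPGD lay under the line, and the bars of the 2 libraries are clearly apart for PTGS2 and PTGES.

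PTGS2 (chromosome 1, 186640923 to 186649559, hg19), the inducible cyclooxygenase, was at 32.2 RPKM in the control library (interval 30.3 to 34.1, from 1114 reads) and 16.5 RPKM in the ANGPTL4 library (14.6 to 18.5, from 281 reads). The control level was above that of 90.3% of measured genes, and the ANGPTL4 level above that of 81.1%. The ratio was 0.513 (0.448 to 0.585), and the log2 ratio was -0.92, under the 2-fold size on that scale. No other annotated row overlapped PTGS2. The nearest, RP5-973M2.2, lay 194 bases beyond its higher coordinate and was listed at 0 in both libraries.

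The constitutive cyclooxygenase, PTGS1, was at 1.63 RPKM in the control library (60 reads) and 1.38 RPKM in the ANGPTL4 library (25 reads), a ratio of 0.847 (0.509 to 1.37). PTGS2 therefore stood 19.8-fold above PTGS1 in the control (15.2 to 26.1) and 12.0-fold above it in the ANGPTL4 library (7.94 to 18.8). PTGS2 was thus the main cyclooxygenase transcript of both. As a description, the ANGPTL4/control ratio of PTGS2 divided by that of PTGS1 was 0.605, with an interval that included 1 (0.366 to 1.03).

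The region upstream of PTGS2 is shown because this promoter carries the elements through which growth factors, cytokines and cyclic AMP are known to act on the gene. The 250 bases before the RefSeq start (GRCh38.p14, chr1:186680424-186680673, minus strand) are printed 5′ to 3′, with 3 motifs searched on both strands in capitals.
PTGS2 promoter: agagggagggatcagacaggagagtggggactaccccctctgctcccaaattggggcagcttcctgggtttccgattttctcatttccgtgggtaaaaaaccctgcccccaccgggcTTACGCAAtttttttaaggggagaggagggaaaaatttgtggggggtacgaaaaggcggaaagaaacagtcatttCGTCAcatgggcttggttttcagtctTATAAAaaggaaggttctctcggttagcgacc
The capitals mark from left to right a C/EBP-type match, a cyclic AMP response element half-site and a TATA box. They begin 133, 58 and 32 bases before the start. An E-box (CANNTG), also searched and not in capitals, begins 55 bases before it and overlaps the half-site, and 61.8% of all stretches held one. Of 35116 RefSeq promoter stretches of this length, 0.148% held the C/EBP-type letters TTACGCAA. The half-site CGTCA was in 21.2% and the TATA box TATAAA in 10.7%. None of the other 8 genes held TTACGCAA in any of their stretches, and TATAAA was found beside PTGS2 only in 1 of the 2 stretches of PTGS1. These are matches of letters and not measured binding sites.

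PTGES (chromosome 9, 132500610 to 132515326), the inducible microsomal enzyme that works together with PTGS2, was at 45.0 RPKM in the control library (41.4 to 48.9, from 561 reads) and 30.7 RPKM in the ANGPTL4 library (26.4 to 35.4, from 188 reads). The ratio was 0.681 (0.574 to 0.805) and the log2 ratio -0.54. A row of another name, AL590369.1, overlaps PTGES by 1274 bases and was at 4.91 and 5.11 RPKM, so reads at that end can be assigned in more than 1 way. PTGES2 (chromosome 9, 130882972 to 130890741), a membrane-associated synthase, was at 29.9 RPKM with the vector (598 reads) and 29.002 RPKM with ANGPTL4 (285 reads), a ratio of 0.969 (0.838 to 1.12). PTGES3 (chromosome 12, 57057127 to 57082159) encodes p23, a cytosolic synthase and a co-chaperone of HSP90. It was at 99.5 RPKM with the vector (2168 reads) and 88.7 RPKM with ANGPTL4 (951 reads), a ratio of 0.892 (0.825 to 0.963). Its interval held the ratio of the median gene, 0.911. The 5 PTGES3 pseudogene rows were listed at 0 in both libraries.

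PTGES was 1.504-fold above PTGES2 in the control library (1.34 to 1.69), while in the ANGPTL4 library the ratio was 1.06 (0.875 to 1.28). As a description, since the genes were chosen on this contrast, the ANGPTL4/control ratio of PTGES divided by that of PTGES2 was 0.703 (0.562 to 0.879), and divided by that of PTGES3 it was 0.764 (0.633 to 0.919). For PTGES2 against PTGES3 it was 1.09 (0.922 to 1.28), and for PTGES against PLA2G4A it was 0.818 (0.591 to 1.14). Such ratios between genes of the same pair of libraries do not depend on how the libraries are scaled.

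The PTGES promoter is shown for comparison, since PTGES is a known target of the growth-induced transcription factor EGR1. The 250 bases before its RefSeq start (GRCh38.p14, chr9:129753043-129753292, minus strand) carry the 9-base EGR1 motif GCGTGGGCG, shown in capitals with 2 GC boxes (GGGCGG). The GC box nearer to the start overlaps the EGR1 motif, and the other does not.
PTGES promoter: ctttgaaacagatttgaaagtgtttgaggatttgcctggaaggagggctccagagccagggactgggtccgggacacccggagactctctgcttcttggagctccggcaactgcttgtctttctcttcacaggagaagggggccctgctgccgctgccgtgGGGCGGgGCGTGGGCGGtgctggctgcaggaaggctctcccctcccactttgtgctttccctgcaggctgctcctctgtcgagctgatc
The EGR1 motif begins 82 bases before the start and was present in 0.720% of all RefSeq stretches, on either strand, against 42.6% for the GC box. It was also found in 1 of the 3 stretches of PTGES2. In contrast to PTGS2, the PTGES stretch held neither TATAAA nor CGTCA. EGR1 was at 11.5 RPKM with the vector and 20.7 RPKM with ANGPTL4, a ratio of 1.79 (1.48 to 2.17), and any part of it in the level of PTGES was not tested.

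PLA2G4A (chromosome 1, 186798085 to 186958113), the cytosolic phospholipase A2 that supplies arachidonic acid, lies 149 kb from PTGS2 with 1 annotated row between them. It was at 9.68 RPKM in the control library (8.33 to 11.2, from 183 reads) and 8.07 RPKM in the ANGPTL4 library (6.35 to 10.1, from 75 reads). The counting ranges of the libraries overlap, and the ratio was 0.833 (0.628 to 1.10). PTGS2 stood 3.32-fold above PLA2G4A in the control library (2.84 to 3.91) and 2.04-fold in the ANGPTL4 library (1.58 to 2.67).

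Among the receptors, PTGER4 (chromosome 5, 40679600 to 40693837), which encodes EP4, was at 4.15 RPKM in the control library (3.403 to 5.01, from 108 reads) and 2.65 RPKM in the ANGPTL4 library (1.84 to 3.71, from 34 reads). The ratio was 0.640 (0.422 to 0.949) and the log2 ratio -0.49, and the interval held the ratio of the median gene. PTGER2 (chromosome 14, 52781023 to 52795324), which encodes EP2, was at 0.431 RPKM from 7 reads and 0.375 RPKM from 3 reads. Its ratio of 0.871 had an interval from 0.145 to 3.82, so no difference was detectable at this depth. PTGER4 was 9.63-fold above PTGER2 in the control (4.52 to 24.5) and 7.08-fold in the ANGPTL4 library (2.23 to 36.0). None of the 7 other prostanoid receptor genes reached 1 RPKM, the highest level being 0.249 RPKM, with at most 3 reads in a library, so PTGER4 was the one prostanoid receptor gene of 9 that was measured.

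HPGD (chromosome 4, 175411328 to 175444305), the dehydrogenase that inactivates prostaglandin E2, was at 0.0826 RPKM with the vector and 0.168 RPKM with ANGPTL4, from 3 reads in each. The interval of the ratio, 0.272 to 15.2, gives no direction.

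**Figure D2:**
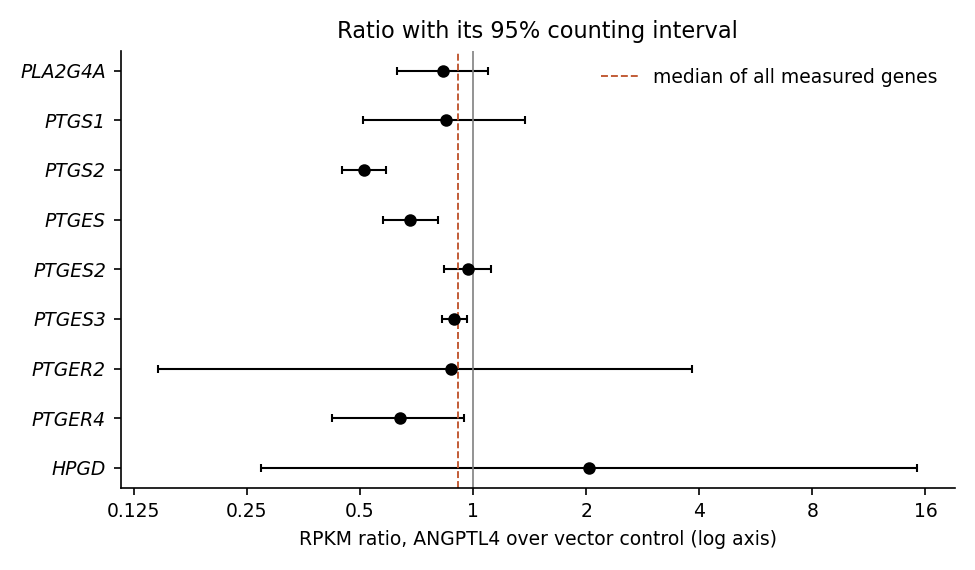
RPKM ratio of the ANGPTL4 library over the vector control library for each gene on a log axis, with exact 95% counting intervals; the grey line is 1 and the dashed line the median of all measured genes, 0.911. PTGS2 and PTGES lie wholly left of both lines, and PTGER2 and HPGD span both.

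All 7 measured genes had a lower value in the ANGPTL4 library, as did 64.4% of all measured genes. Their median log2 ratio was -0.24, beside -0.11 for all measured genes. The direction of PTGES2 turned when values were centred on the median gene (0.067), so 6 of 7 were then lower. By construction the median of all measured genes was then 0. None of the 7 was lower by 2-fold (1.91% of all measured genes were) and 1, PTGS2, was lower by 1.5-fold (9.25% of all measured genes). None was higher by 1.5-fold (3.08% of all). Over all measured genes 1092 were lower and 364 higher by 1.5-fold, and after centring on the median gene these were 695 and 548. The counting interval lay wholly below 1 for 4 of the 9 genes, PTGS2, PTGES, PTGES3 and PTGER4, and this held for 27.6% of the 9756 measured genes with a settled exon length. It lay wholly below the ratio of the median gene for 2, PTGS2 and PTGES, against 16.7% of those genes. Since PTGS2 was selected on this contrast, nothing is read from these shares. A lower share of cells expressing a gene and less of its RNA per cell cannot be told apart in bulk RNA.

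The 3′ untranslated region of PTGS2 is known for AU-rich elements that shorten the life of its mRNA, and is shown for that reason. In GENCODE 29 it spans 2562 bases and holds 22 copies of ATTTA, more than in 98.3% of 18931 protein-coding genes. Its first 30 bases hold 3 overlapping copies, in capitals.
PTGS2 3′ UTR, bases 1 to 30: aagtctaatgatcatATTTATTTATTTAta
PTGER4 held 9 copies, PTGES3 6, PTGER2 and HPGD 5 each, PLA2G4A 4, PTGS1 3, PTGES 1 and PTGES2 none, where the median gene held 1. These counts grow with the length of the region. Per kilobase PTGS2 held 8.59 copies and PLA2G4A 8.46, nearly the same, PTGER4 6.63, PTGES3 5.28, PTGS1 0.9497 and PTGES 0.781, where the median gene held 1.35. Whether mRNA decay has a part in any difference was not tested. Of 20 proteins known to bind such elements, or to act on mRNA decay, all were measured, with a median log2 ratio of -0.05. None was lower or higher by 1.5-fold, beside 9.25% and 3.08% of all measured genes. Of the 20, 13 had a lower and 7 a higher value, where 64.4% of all measured genes were lower. The highest log2 ratio of the 20 was that of ZFP36. ZFP36, which speeds decay of these mRNAs, was at 16.7 RPKM with the vector and 22.5 RPKM with ANGPTL4, a ratio of 1.35 (1.09 to 1.67). ELAVL1, which stabilises them, was at 12.5 and 11.9 RPKM, a ratio of 0.952 (0.821 to 1.10).

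Of 32 listed transcription factors known to act on the PTGS2 promoter and proteins that regulate such factors (NFKBIA and EP300 among them), 31 were measured. By 1.5-fold 3 were higher and none was lower, beside 3.08% and 9.25% of all measured genes. The median log2 ratio of the 31 was 0.06. The 3 higher ones were EGR1, TCF7L2, the effector of Wnt signalling, at 6.69 RPKM in the control and 12.1 RPKM with ANGPTL4 (exon length not settled), and FOS, a subunit of AP-1, at 0.423 RPKM (9 reads) and 1.24 RPKM (13 reads). CEBPB, a factor that binds C/EBP sites, was at 83.5 and 64.8 RPKM, a ratio of 0.776 (0.689 to 0.874). NFKBIA, the inhibitor and target of NF-kB, was at 76.7 and 100.3 RPKM, a ratio of 1.31 (1.19 to 1.43). Of the 31, 18 had a higher and 13 a lower value in the ANGPTL4 library, where 64.4% of all measured genes were lower. The counting interval lay wholly below 1 for 4, beside 27.6% of measured genes with a settled exon length. It lay wholly above 1 for 9, among them the inhibitor NFKBIA. The share above 1 over all genes was not worked out, so nothing is read from that count. The ratio was 1.34 (1.13 to 1.58) for JUN, 1.27 (1.20 to 1.34) for HIF1A and 1.06 (0.949 to 1.19) for RELA. Any part of these genes in the level of PTGS2 was not tested.

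Beyond the E branch, the values of CBR1 and AKR1B1, which lead to prostaglandin F2α, were lower in the ANGPTL4 library. CBR1, a carbonyl reductase that converts prostaglandin E2 to F2α, was at 9.31 RPKM with the vector (150 reads) and 4.17 RPKM with ANGPTL4 (33 reads), a ratio of 0.447 (0.297 to 0.655). AKR1B1, an aldo-keto reductase with prostaglandin F synthase activity, was at 32.2 and 19.5 RPKM, a ratio of 0.606 (0.521 to 0.703). AKR1C3, another such enzyme, was at 1.11 and 0.546 RPKM, and its ratio of 0.493 had an interval that included 1 (0.197 to 1.09). Its close relatives AKR1C1 and AKR1C2 can share its reads. Of the 9 listed synthases and reductases outside the E branch 5 were measured, 4 with a lower and 1 with a higher value. Their median log2 ratio was -0.45, which is the value of AKR1C3. By 1.5-fold 2 were lower (CBR1 and AKR1B1) and none was higher, beside 9.25% and 3.08% of all measured genes. Also measured were FAM213B at 7.18 and 6.10 RPKM, a ratio of 0.849 (exon length not settled), and CBR3 at 0.911 and 1.06 RPKM. The ratio of CBR3 was 1.16, with an interval that included 1 (0.249 to 4.57). PTGDS, HPGDS, PTGIS and TBXAS1, the synthases of prostaglandins D2 and I2 and of thromboxane, were at 0.136 RPKM or less.

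On the supply side, 18 of 33 genes of arachidonate release and reacylation were measured, with a median log2 ratio of -0.01. By 1.5-fold 1 was lower and 1 higher, beside 9.25% and 3.08% of all measured genes. The lower one was ANXA1, whose product annexin A1 inhibits phospholipase A2, at 150.8 RPKM with the vector and 94.3 RPKM with ANGPTL4, a ratio of 0.626 (0.589 to 0.664). The higher one was PLA2G4B, a relative of PLA2G4A, at 0.235 RPKM (8 reads) and 1.07 RPKM (18 reads). A read-through row, JMJD7-PLA2G4B, was at 2.63 and 1.97 RPKM, so the reads of PLA2G4B are uncertain.

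Of 13 listed genes of breakdown and transport 6 were measured, with a median log2 ratio of -0.03. None was lower or higher by 1.5-fold, beside 9.25% and 3.08% of all measured genes. PTGR1, a reductase that acts on 15-keto prostaglandins after HPGD, was at 10.3 and 13.2 RPKM, a ratio of 1.28 (1.04 to 1.56). ABCC4, an exporter of prostaglandins, was at 3.11 and 2.84 RPKM. SLCO2A1, the prostaglandin uptake carrier, was at 0.317 RPKM with the vector and listed at 0 with ANGPTL4, and its exon length, and so its read count, was not settled.

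Downstream of the receptors, 14 of the 23 receptor and G protein genes were measured, with a median log2 ratio of -0.18. None was lower or higher by 1.5-fold, beside 9.25% and 3.08% of all measured genes. GNAS, the stimulatory G protein through which EP2 and EP4 act, was at 66.9 and 61.6 RPKM, a ratio of 0.922 (0.880 to 0.965). PPARG, a nuclear receptor bound by prostaglandin derivatives, was at 6.09 and 4.13 RPKM, a ratio of 0.678 (0.488 to 0.927). The intervals of GNAS and PPARG both held the ratio of the median gene, 0.911. Of 21 listed response genes of cyclic AMP and EP receptors 16 were measured, 6 with a lower and 10 with a higher value. Their median log2 ratio was 0.10. By 1.5-fold 2 were lower and none higher, beside 9.25% and 3.08% of all measured genes. The lower ones were AREG, an EGF receptor ligand induced by prostaglandin E2, and CRTC3, a CREB coactivator. AREG was at 25.1 and 16.1 RPKM, a ratio of 0.643 (0.498 to 0.822). CRTC3 was at 2.81 and 1.401 RPKM, a ratio of 0.498 (0.357 to 0.684). In this list the counting interval lay wholly below 1 for 3 genes, AREG and CRTC3 among them, and wholly above 1 for 4. Among those 4 were FOSL1, at a ratio of 1.33 (1.21 to 1.46), and CRTC2, at 1.33 (1.05 to 1.67). The list therefore had no common direction.

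**Figure D3:**
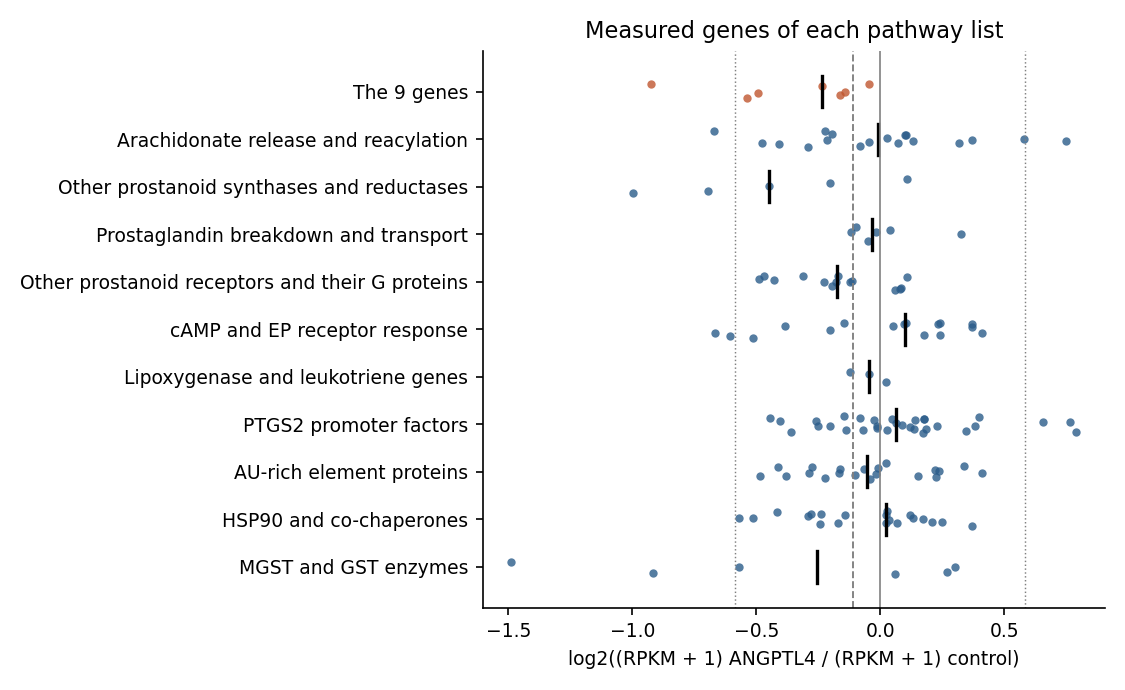
Log2 ratio on the log2(RPKM + 1) scale of every measured gene of the 9 genes (orange) and of each wider list (blue), with black ticks at list medians; the dashed line is the median of all measured genes, -0.11, and dotted lines mark 1.5-fold. The orange points run from -0.92 to -0.04. The lowest list median, -0.45, is that of the other prostanoid synthases and reductases, with 5 measured genes. It is the value of AKR1C3, which had 33 reads with the vector and 8 with ANGPTL4.

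The measured genes closest to PTGS2 in log2(RPKM + 1) over the 2 libraries, among 11024 named genes that are neither pseudogenes nor small RNAs, were RPL39, UQCRQ, NACA, EIF1 and BZW2. RPL39, a ribosomal protein gene, lay at a distance of 0.092, with 32.6 RPKM with the vector and 17.6 RPKM with ANGPTL4. BZW2 was the farthest of the 5 at 0.15, with 33.9 and 14.9 RPKM. With 2 libraries this likeness says only that level and ratio were close.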

How the data were processed

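Total RNA was extracted with TRIzol, per the labels' protocols, and sequenced in 2 libraries, 1 per group, grouped by the transfection in the labels. The authors deposited RPKM, per the file headers, and the build was hg19, as the submitters' processing notes say. Which aligner, counter and annotation release were used, and whether strand was, is not given in the sources used here. The members and lists were chosen with earlier results of these data known.

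The tables hold 57773 rows under 57771 names. Rows whose names differ only in a numbered suffix were summed, which left 55773 symbols. Date-like names stand on 27 rows, and the rows of the 2 such names that recur were kept apart. Log2 ratios use a pseudocount of 1, which understates differences of low genes. With 1 library per group there was no test. Reads were recovered from the RPKM steps: each library total was the whole number at which the highest count of rows spanning under 3 kb gave whole reads (tolerance 0.0001), 300 of 1378 rows for the control and 278 of 1123 for ANGPTL4 (271 and 251 at the next best total), and the 13 mitochondrial protein genes were whole in both, and exon lengths were those giving whole reads in both libraries (tolerance 0.001) nearest to the GENCODE 29 length. A length was settled, being GENCODE's own or the only candidate within 25% of it, for 70.9% of rows above 0 and for all 9 genes. Where a length was not settled, the shortest length giving whole reads was used instead of the nearest. Intervals of ratios are exact conditional binomial, those of levels exact Poisson, and those of ratios between genes exact conditional odds ratios (SciPy 1.17.1). The recovery of reads and the ratios were tried on data simulated from rows with a settled length, with the library totals taken as given. The totals themselves were not tested in this way. Promoters are from RefSeq (all 9 genes matched), 3′ untranslated regions from GENCODE, taking the transcript with the longest coding part.

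All 9 genes are named. Of each wider list the text names up to 3 genes at either end past 1.5-fold and genes of the same reaction step. ZFP36, ELAVL1, CEBPB, NFKBIA, JUN, HIF1A, RELA, FAM213B, CBR3, PTGR1, ABCC4, SLCO2A1, GNAS, PPARG, FOSL1 and CRTC2, and those under the other observations, were named after their values were seen. Alternatives were other pseudocounts, minimum levels and scalings, and the highest row per symbol.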

Additional observations from a re-analysis of the deposited data

How the results depend on the processing

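Of 61 values of single members under 9 alternatives, 59 stayed within the counting interval, and the 2 that left it were those of PTGES3 below. Another 2, both of PTGES2 and within its interval, changed sign (after centring on the median gene and after scaling that left out small RNA, mitochondrial and ribosomal protein genes). PTGS2 ranged from -1.09 to -0.79 and PTGES from -0.70 to -0.43. PTGES3 was at -0.052 when centred on the median gene and -0.33 when each library was scaled to a fixed sum. Under those settings the median of the measured members was -0.13 and -0.39, and that of all measured genes 0 and -0.25. With the fixed sum 1 member was lower by 2-fold and 3 by 1.5-fold, and with a pseudocount of 0.1 2 were lower by 1.5-fold. Over all measured genes, 226 were lower by 2-fold, and 532, 26, 126, 139 and 378 were with a pseudocount of 0.1, a pseudocount of 5, a minimum of 5 RPKM, centring and the fixed sum. Under the same settings 1647, 309, 667, 695 and 1900 genes were lower by 1.5-fold, in place of 1092. Higher by 1.5-fold were 600, 75, 108 and 548 under those 4 settings before the fixed sum, in place of 364. Depth limits PTGER2 and HPGD, with 3 to 7 reads. No paired analysis was possible because each group had 1 library.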

Other observations

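PTGES3 also belongs to the HSP90 machinery, as the co-chaperone p23. Of 21 listed HSP90 genes and co-chaperones 20 were measured, with a median log2 ratio of 0.02. None was lower or higher by 1.5-fold, beside 9.25% and 3.08% of all measured genes. HSP90AA1, the inducible cytosolic HSP90, was at 359.2 RPKM with the vector and 241.7 RPKM with ANGPTL4, a ratio of 0.673 (0.650 to 0.697), lower than that of PTGES3. The co-chaperone CDC37, which brings kinases to HSP90, was at 81.7 and 105.8 RPKM (1633 reads with the vector, 1040 with ANGPTL4), and its ratio was 1.29. DNAJA1, an HSP40 protein, was at 64.1 and 47.8 RPKM, a ratio of 0.745 (0.665 to 0.834).

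PTGES is a membrane protein of the family that includes the microsomal glutathione transferases. Of these, MGST1 was at 23.2 RPKM with the vector and 24.1 RPKM with ANGPTL4, a ratio of 1.04 (0.932 to 1.16), and MGST2 at 1.86 and 2.53 RPKM, a ratio of 1.36 (0.792 to 2.28). GSTO1, a glutathione transferase of another family, was at 28.0 and 9.33 RPKM, a ratio of 0.333 (0.243 to 0.449), and GSTM3 at 2.58 and 0.895 RPKM. Of 16 listed genes of the lipoxygenase and leukotriene route, the other main use of arachidonic acid, 3 were measured. The lipoxygenases themselves did not reach 1 RPKM, with ALOX5 at 0.495 and 0.168 RPKM. LTA4H, the leukotriene A4 hydrolase, was at 20.8 and 21.1 RPKM, and GPX4, a lipid peroxide reductase, at 67.2 and 61.7 RPKM.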
